A study of Mus musculus with 17 samples.

Results

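The genes described are 9 that mark regulatory T cells or carry out part of their work: Foxp3, Il2ra, Ikzf2, Ikzf4, Tnfrsf4, Tnfrsf18, Lrrc32, Ccr8 and Il10. They were taken by name, with earlier results of these data known, as the rows of the count table whose Ensembl identifier carries these symbols in Gencode vM21. They make up 9 of the 55450 genes counted. The counts came from 17 AB12 tumors. AB12 is a murine mesothelioma cell line of biphasic type, injected here into the peritoneum of 8-week-old female BALB/c mice, so that every group shared this host, this single line and an intact immune system. Of the untreated tumors 3 were taken on day 6 (d6), 5 on day 10 (d10) and 3 on day 14 (d14). Tumors of mice given anti CTLA-4 (clone 9D9, 200 µg by intraperitoneal injection) were taken on d10 and d14, 3 on each day. The untreated tumors of a day serve in several comparisons, which therefore share samples. For the treated d14 tumors the antibody was injected on d6 and d10, while the schedule behind the treated d10 tumors is not given in the sources used here. The study's methods give 3 or more independent mice in each group, which does not settle whether the 5 untreated d10 tumors came from 5 mice. Where each tumor came from its own mouse, p-values measure the spread between mice that carry the same tumor line.

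Regulatory T cells are CD4+ T cells that restrain other T cells. Foxp3 is the transcription factor that defines them, Il2ra (CD25) lets them bind IL-2 with high affinity and pass the signal on through STAT5, and they carry much surface CTLA-4, the target of the antibody. In tumors they are often a large share of the CD4+ cells, and antibodies to CTLA-4 can deplete them where the antibody isotype engages Fc receptors.

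Library totals ran from 46371577 to 96759833 counts, with a median of 72413343, so that even the lowest Foxp3 count, 19 in a treated d10 tumor, lay above the floor of 3 counts used here for detection. Levels are given as CPM, the counts scaled to the library size after edgeR's TMM factors, and differences as log2 values with their standard error (SE) from edgeR's quasi-likelihood test. A gene passed where its p adjusted over all genes tested was below 0.05. All 9 genes cleared the filter on low counts in each comparison. Counts of 276 pseudogenes and small RNA genes split the libraries into 3 sets: the untreated d6 tumors with untreated d10 replicates 1 to 3, the treated d10 tumors with untreated d10 replicates 4 and 5, and all d14 tumors. Mir6236 showed the split, with 3387 to 12332 counts in the first set, 141 to 1244 in the second and 5 to 24 in the third. With the cut at 3 sets, the day and the library set cannot be told apart in comparisons of d14 with earlier days. The d14 treatment comparison lies within 1 set.

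Foxp3 was highest at d6, lower at d10 and lowest of all in the treated d10 tumors. Its level in the treated d14 tumors lay above that in the treated d10 tumors. In the d6 tumors its level was 6.15, 5.18 and 5.86 CPM. In the untreated d10 tumors it was 2.73, 1.56, 2.72, 3.39 and 1.52 CPM, and in the untreated d14 tumors 0.88, 0.90 and 1.85 CPM. The treated d10 tumors held 0.23, 0.45 and 0.52 CPM, from 19, 30 and 35 counts, and the treated d14 tumors 2.32, 3.17 and 3.00 CPM. From the highest to the lowest mean the order was untreated d6 (5.73 ± 0.50 CPM, SD, n = 3), treated d14 (2.83 ± 0.45, n = 3), untreated d10 (2.38 ± 0.82, n = 5), untreated d14 (1.21 ± 0.56, n = 3) and treated d10 (0.40 ± 0.15, n = 3). The treated d14 and untreated d10 tumors overlapped, as did untreated d10 and d14, and the other neighbours in this order did not.

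Foxp3 lies on the forward strand of chromosome X (GRCm38, chrX:7573644-7595245). RefSeq (GRCm38.p6) gives it 2 transcript starts, and the window from 250 bases before to 50 bases after each is shown because Foxp3 carries large differences and because the motif TTCNNNGAA, the letters that STAT factors recognise, can be looked up in it. Capitals mark a match on either strand.
Foxp3, first start (chrX:7579426-7579725, + strand): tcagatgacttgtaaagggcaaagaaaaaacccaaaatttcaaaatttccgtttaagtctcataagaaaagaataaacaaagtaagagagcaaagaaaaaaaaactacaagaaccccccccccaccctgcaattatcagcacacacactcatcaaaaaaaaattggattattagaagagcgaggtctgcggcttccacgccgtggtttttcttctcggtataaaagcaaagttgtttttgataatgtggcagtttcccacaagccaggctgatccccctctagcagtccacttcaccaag
Foxp3, second start (chrX:7580233-7580532, + strand): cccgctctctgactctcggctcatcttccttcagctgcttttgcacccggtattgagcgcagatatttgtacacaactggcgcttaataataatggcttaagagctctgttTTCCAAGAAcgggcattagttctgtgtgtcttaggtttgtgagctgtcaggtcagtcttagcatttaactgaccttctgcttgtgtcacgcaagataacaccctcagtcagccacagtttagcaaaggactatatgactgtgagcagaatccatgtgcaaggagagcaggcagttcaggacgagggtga
The second window held 1 match and the first none. Of 32851 mouse promoter windows of this length 8.3% held the motif, and a match is a run of letters, not a site shown to be bound. Neither window held TGANTCA, the AP-1 motif (in 7.81% of windows), or TGTTTAC, the forkhead motif (in 3.65%), so that no match overlapped one of another motif. Of the exon bases of Foxp3, 31.5% are shared with other annotated genes and 18.6% with one on the same strand. The strand used in counting is not stated. On the same strand lies Flicr, a non-coding gene, which was at 0.03 to 0.23 CPM over all tumors and at 0.03 to 0.05 CPM in the treated d10 tumors. On the opposite strand Ccdc22 was at 0.38 to 1.48 CPM over all tumors, highest at d6 and at 0.59 to 0.86 CPM in the treated d10 tumors. Ppp1r3f was at 0.35 to 1.28 CPM over all tumors and at 0.87 to 1.10 CPM in the treated d10 tumors. Both of the latter thus exceeded Foxp3 itself in the treated d10 tumors (0.23 to 0.52 CPM), while Flicr lay below it. The part of reads from these genes in the Foxp3 count was not tested.

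**Figure D1:**
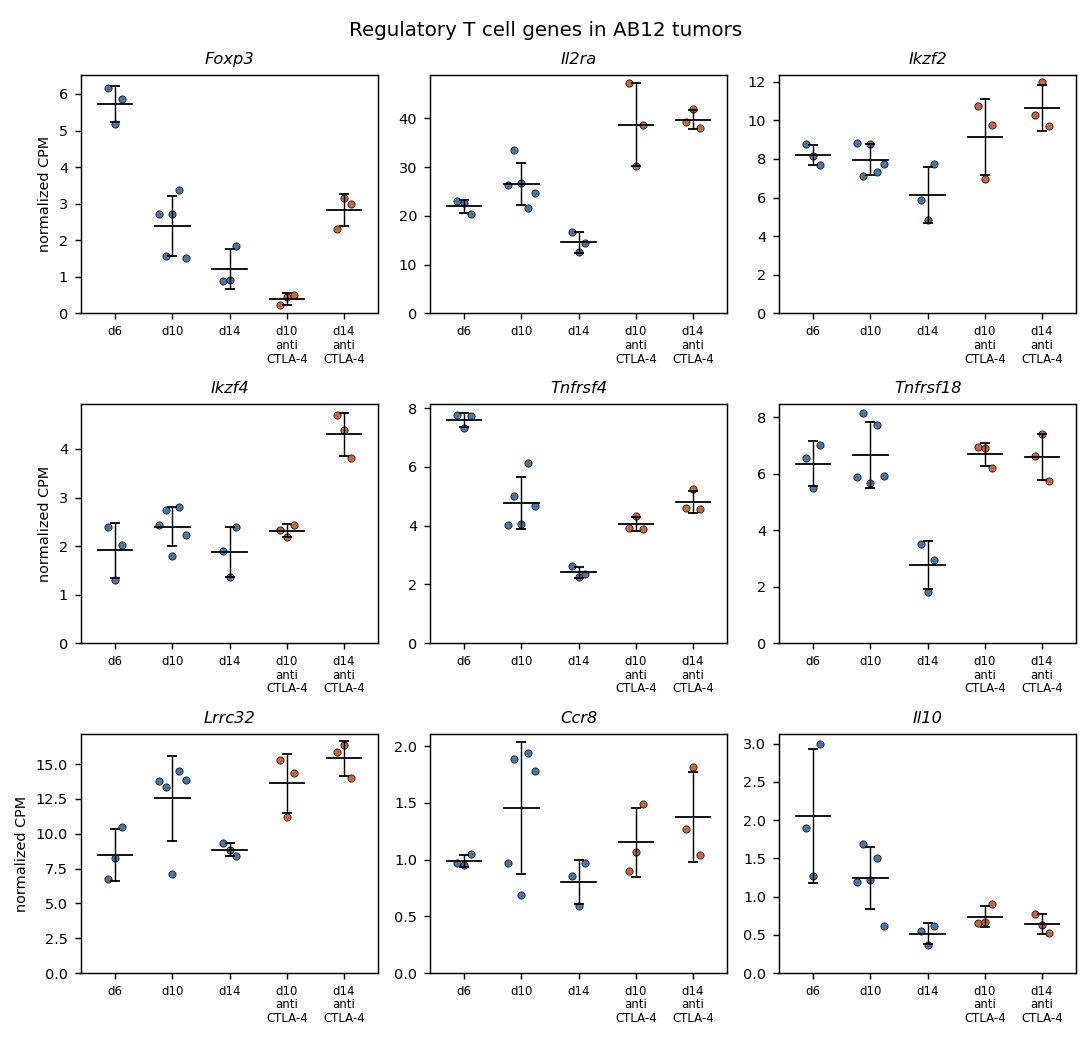
Normalized CPM (vertical axes, linear, from 0) of the 9 genes in each of 17 tumors (points), by group on the horizontal axes, with untreated groups in blue and anti CTLA-4 groups in orange. Horizontal bars are group means and error bars 1 SD. Foxp3 fell from 5.18 to 6.15 CPM at d6 to 1.52 to 3.39 CPM at d10, and was at 0.23 to 0.52 CPM in the treated d10 tumors.

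The change of untreated tumors from d6 to d10 addresses how these genes moved over the days in which Cd3e rose. Foxp3 fell by 1.27 on the log2 scale (SE 0.27, adjusted p = 0.0123), or 2.41-fold, and Tnfrsf4, which encodes the costimulatory receptor OX40, fell by 0.68 (SE 0.16, adjusted p = 0.0177). The other 7 did not pass. Thus 2 of 9 genes passed, both lower, against 7.03% of all 16866 genes tested lower and 10.5% higher. Cd3e, the T cell receptor subunit used as a measure of T cells, rose over the same days from 12.6 to 14.5 CPM to 53.6 to 65.2 CPM (log2 difference 2.10, SE 0.10, adjusted p = 1.48e-05). Cd4 did not pass (-0.39, SE 0.19, adjusted p = 0.174), while Cd8a stood at 7.23 to 7.53 CPM at d6 and 55.5 to 80.8 CPM at d10. With untreated d10 replicates 1 to 3 alone, which share a library set with the d6 tumors, the difference was -1.27 for Foxp3 (adjusted p = 0.00387) and -0.78 for Tnfrsf4 (adjusted p = 0.0043). Leaving out d6 replicate 1 or 3 left no member past the threshold, and leaving out d6 replicate 2 left Foxp3 alone.

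From d10 to d14 Il2ra fell by 0.86 (SE 0.16, adjusted p = 0.00974), Tnfrsf4 by 0.97 (SE 0.19, adjusted p = 0.0109), Tnfrsf18 by 1.26 (SE 0.24, adjusted p = 0.0103) and Il10 by 1.27 (SE 0.35, adjusted p = 0.0349) in the untreated tumors. All 9 genes here had negative log2 differences, with a median of -0.86 against -0.04 over all genes tested, and these 4 passed. Among all 17659 genes tested 9.87% passed lower and 9.8% higher. Cd3e fell alongside by 0.99 (SE 0.15, adjusted p = 0.00656) and Cd4 by 1.20 (SE 0.28, adjusted p = 0.0189), and the summed level of 10 T cell markers went from 262 to 366 CPM at d10 to 106 to 193 CPM at d14. The summed macrophage markers also went down, from 1604 to 2630 CPM to 727 to 1025 CPM. The part of these cells in the fall of the 4 genes was not tested, and in a bulk tumor fewer cells of a type and less RNA per cell cannot be told apart. Foxp3 did not pass here (-0.96, SE 0.37, adjusted p = 0.0912). Without untreated d14 replicate 2, the lowest of its group in Cd3e and Cd4, Tnfrsf18 was the only member that passed, while the log2 differences of the others moved little: -0.77 for Il2ra (adjusted p = 0.0583), -0.93 for Tnfrsf4 (adjusted p = 0.0599) and -1.07 for Il10 (adjusted p = 0.147). Over all fits that left out 1 tumor they ran from -0.97 to -0.76 for Il2ra, from -1.04 to -0.87 for Tnfrsf4 and from -1.44 to -1.07 for Il10. The groups overlapped for Il10, which also missed the threshold without d10 replicate 1, 2 or 4 and without d14 replicate 1 or 3.

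Over the whole untreated course, from d6 to d14, 5 of 9 genes fell: Foxp3 by 2.23 (SE 0.30, adjusted p = 0.000437), Il10 by 1.99 (SE 0.36, adjusted p = 0.002), Tnfrsf4 by 1.65 (SE 0.16, adjusted p = 9.02e-05), Tnfrsf18 by 1.20 (SE 0.25, adjusted p = 0.00349) and Il2ra by 0.59 (SE 0.13, adjusted p = 0.00411). No member rose, against 25.5% of all genes tested higher and 26% lower. Cd4 fell by 1.59 (SE 0.26, adjusted p = 0.00114) and Cd3e rose by 1.11 (SE 0.17, adjusted p = 0.000897). Markers of other cells moved over the same days: 4 of 7 macrophage markers (median log2 difference -1.11), 3 of 7 dendritic cell markers and 2 of 4 NK cell markers passed lower, while 3 of 5 endothelial markers and 1 NK cell marker passed higher. Their part in the fall of the 5 genes was not tested. Ikzf2, Ikzf4, Lrrc32 and Ccr8 did not pass, with log2 differences from -0.42 to 0.06.

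The treated d10 tumors address what anti CTLA-4 did early, and here Foxp3 stood apart from the other 8 genes. Its level was 0.23 to 0.52 CPM against 1.52 to 3.39 CPM in the 5 untreated d10 tumors, a log2 difference of -2.60 (SE 0.39), or 6.05-fold lower, with no overlap between the groups (4.88% of all genes tested were apart and lower). By edgeR's quasi-likelihood test this did not pass over 17258 genes (adjusted p = 0.0745), and none of the 9 genes did, in a comparison in which 0.0174% of all genes passed higher and 0% lower. At an unadjusted p below 0.05 there were 3 of the 9 (Foxp3, Il2ra and Il10), and by DESeq2 1, Foxp3. By p Foxp3 ranked 13th of these genes, and 94 genes, 0.545%, had a lower log2 difference. Under 16 alternative settings its log2 difference ran from -2.83 to -2.31 and its adjusted p from 2.08e-08 with DESeq2 to 0.438 without treated d10 replicate 1. It passed in 6 of these, among them the fit without untreated d10 replicate 5 (adjusted p = 0.0213). Against untreated d10 replicates 4 and 5 alone, which fall in the same library set, the log2 difference was -2.62 (adjusted p = 0.0514), and against replicates 1 to 3 it was -2.59 (adjusted p = 0.00109).

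For the other 8 genes at d10 the log2 differences ran from -0.76 for Il10 (SE 0.33, adjusted p = 0.356) to 0.54 for Il2ra (SE 0.18, adjusted p = 0.284), and that of Tnfrsf18 was 0.00 (SE 0.16). Il2ra was at 30.3 to 47.2 CPM in the treated d10 tumors and at 21.7 to 33.5 CPM in the untreated ones, so that the groups overlapped. Cd3e differed by -0.21 (SE 0.10, adjusted p = 0.37), and Cd4 by -0.64 (SE 0.19, adjusted p = 0.262) with no overlap, at 4.71 to 5.13 CPM against 5.89 to 10.5 CPM. The summed B cell markers were at 31.7 to 35.6 CPM in the treated and 42.9 to 180 CPM in the untreated d10 tumors, and the summed dendritic cell markers at 20.5 to 22.1 CPM against 27.2 to 45.4 CPM. The part of these cells in the Foxp3 difference was not tested. Of 23 other genes known from regulatory T cells that were tested, none passed by edgeR and 5 had an unadjusted p below 0.05. Of these 23 genes 9 had positive and 14 negative log2 differences, with a median of -0.09. Izumo1r (folate receptor 4), which regulatory T cells carry, is 1 gene picked from the 23, outside the rule by which genes of this list were named. It had the log2 difference -1.72 (SE 0.32, adjusted p = 0.13), did not pass and does not stand for the list.

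**Figure D2:**
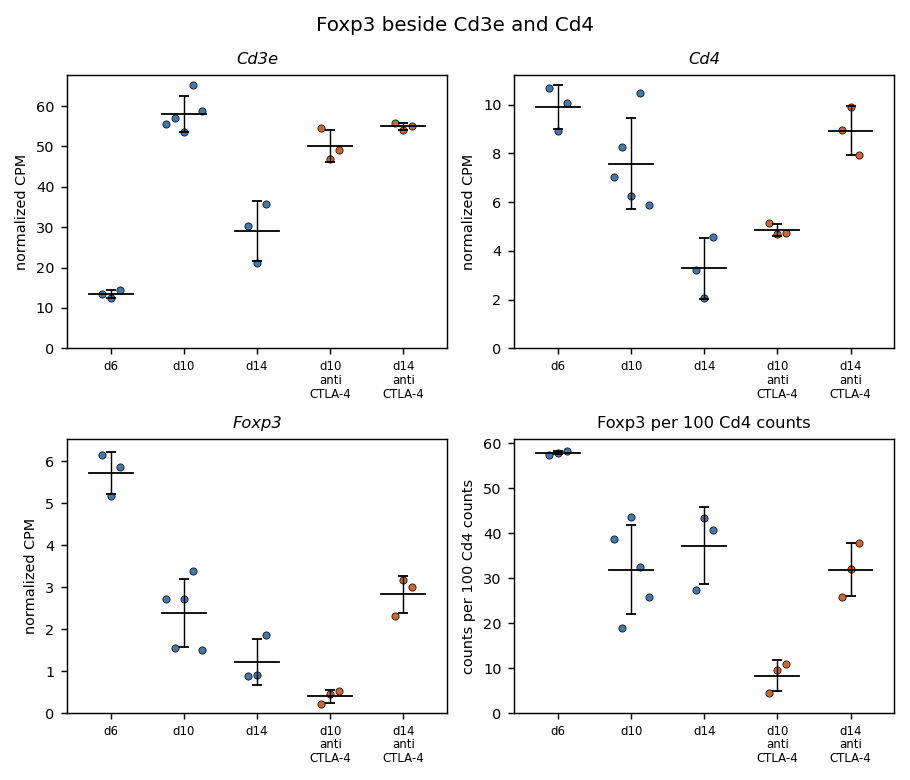
Normalized CPM of Cd3e, Cd4 and Foxp3, and Foxp3 counts per 100 Cd4 counts (vertical axes, linear, from 0), in each tumor (points) by group, untreated in blue and anti CTLA-4 in orange. Horizontal bars are means and error bars 1 SD. Foxp3 per 100 Cd4 counts was 57.5 to 58.2 at d6 and 4.39 to 10.9 in the treated d10 tumors, while Cd3e at d10 was 46.9 to 54.6 CPM with treatment and 53.6 to 65.2 CPM without.

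At d14 the treated tumors held more Foxp3, Il2ra, Ikzf2, Ikzf4, Tnfrsf4, Tnfrsf18 and Lrrc32 than the untreated ones. All 9 log2 differences were above 0, with a median of 1.06 against -0.00 over all genes tested. Of them 7 passed, all higher, against 17.7% of 18062 genes tested higher and 14.8% lower. For Foxp3 the log2 difference was 1.28 (SE 0.32, adjusted p = 0.0217), with 2.32 to 3.17 CPM in the treated and 0.88 to 1.85 CPM in the untreated tumors. Ccr8 was also higher in each treated tumor but did not pass (0.83, SE 0.30, adjusted p = 0.0643), and Il10 overlapped (0.38, SE 0.29, adjusted p = 0.347). On this scale 8 of 9 genes did not overlap between the groups, as for 22.6% of all genes tested. The Foxp3 call was lost when untreated d14 replicate 1 (adjusted p = 0.0756) or 2 (0.0541), or treated d14 replicate 2 (0.0727) or 3 (0.0522), was left out, and that of Ikzf2 without untreated d14 replicate 1 (0.0573) or treated d14 replicate 2 (0.0549).

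The T cell markers were higher as well, and 10 of 10 passed. Cd3e rose by 0.98 on the log2 scale (SE 0.17, adjusted p = 0.00774) and Cd4 by 1.50 (SE 0.27, adjusted p = 0.00837). Markers of other cells moved as well: 6 of 7 macrophage, 5 of 5 fibroblast and 4 of 7 dendritic cell markers passed higher. Summed macrophage markers were at 1607 to 2031 CPM with treatment and 727 to 1025 CPM without. The part of these cells in the members' rise was not tested.

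Within the treated mice, Foxp3 rose from d10 to d14 by 2.91 on the log2 scale (SE 0.29, adjusted p = 0.000332), or 7.54-fold. Ikzf4, which encodes the Ikaros factor Eos, a partner of Foxp3 in gene silencing, rose by 0.95 (SE 0.15, adjusted p = 0.00147). The other 7 genes did not pass, against 23.3% of 17791 genes tested higher and 23.3% lower. Cd4 rose by 0.94 (SE 0.13, adjusted p = 0.000838) and Cd3e did not pass (0.19, SE 0.08, adjusted p = 0.08). Of the markers of other cells, 5 of 6 B cell (median log2 difference 2.39), 6 of 7 dendritic cell (1.35), 5 of 5 endothelial (1.19), 5 of 5 fibroblast (0.78) and 4 of 7 macrophage markers (0.29) passed higher. Their part in the rise of Foxp3 and Ikzf4 was not tested.

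The treatment effect itself differed between d14 and d10 for 5 genes. The effect at d14 minus that at d10 was 3.87 for Foxp3 (SE 0.54, adjusted p = 0.00243), 1.31 for Tnfrsf18 (SE 0.29, adjusted p = 0.00967), 1.29 for Ikzf4 (SE 0.29, adjusted p = 0.00982), 1.28 for Tnfrsf4 (SE 0.22, adjusted p = 0.00383) and 0.96 for Il2ra (SE 0.24, adjusted p = 0.0161). Over all 18574 genes tested 11.9% passed higher and 5.85% lower. The difference for Cd3e was 1.18 (SE 0.19, adjusted p = 0.00355) and for Cd4 2.14 (SE 0.34, adjusted p = 0.00343). Other cell markers differed in the same direction: 5 of 6 B cell markers passed with a median over the list of 4.02, as did 6 of 7 macrophage (1.65), 6 of 7 dendritic cell (1.25) and 5 of 5 fibroblast markers (1.50). The part of these cells in the members' differences was not tested. The difference of Il2ra missed the threshold without untreated d14 replicate 2 (adjusted p = 0.0563) or treated d14 replicate 2 (0.0504).

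**Figure D3:**
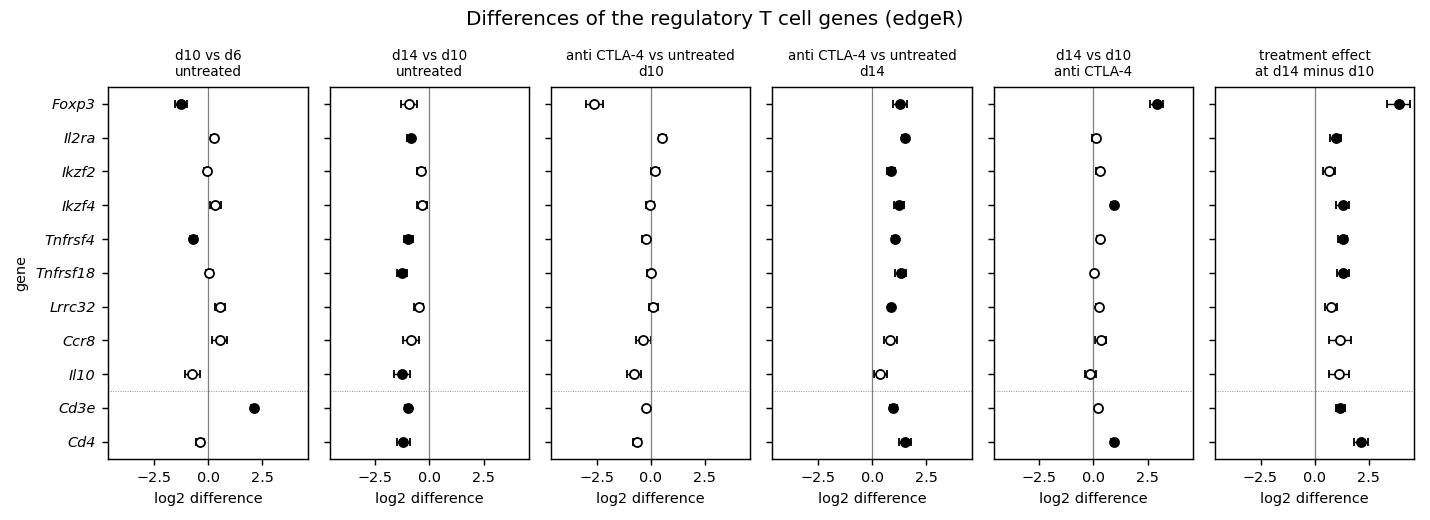
Log2 differences (horizontal axes) of the 9 genes, with Cd3e and Cd4 below the dotted line, in 6 comparisons, with error bars of 1 SE and filled points where the adjusted p was below 0.05. Foxp3 has the lowest value at d10 with treatment (-2.60, open point) and the highest difference between the treatment effects (3.87, filled).

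The receptors of the group followed different courses. Il2ra was at 23.0, 22.6 and 20.5 CPM at d6, at 26.3, 33.5, 26.6, 21.7 and 24.8 CPM at d10 and at 16.8, 12.5 and 14.4 CPM at d14 without treatment. With treatment it was at 47.2, 30.3 and 38.6 CPM at d10 and 39.2, 41.9 and 38.0 CPM at d14. The treated and untreated d14 tumors were thus far apart (log2 difference 1.51, SE 0.12, adjusted p = 0.00292), and Il2ra, which activated conventional T cells also carry, was high in the treated d10 tumors in which Foxp3 was lowest.

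Tnfrsf4 (OX40) and Tnfrsf18 (GITR) are neighbouring genes on chromosome 4 (chr4:156013843-156016612 and chr4:156026164-156028895) whose products give costimulatory signals to T cells. Tnfrsf4 was at 7.76, 7.31 and 7.73 CPM at d6, at 4.01, 5.01, 4.05, 6.14 and 4.65 CPM at d10 and at 2.63, 2.27 and 2.34 CPM at d14, falling at each step. Its treated levels were 3.93, 4.33 and 3.89 CPM at d10 and 4.62, 5.24 and 4.56 CPM at d14. Tnfrsf18 did not pass from d6 to d10 and was lower at d14: it was at 6.57, 5.49 and 7.04 CPM at d6, at 5.91, 8.15, 5.66, 7.73 and 5.92 CPM at d10 and at 3.53, 1.83 and 2.95 CPM at d14. With treatment it was at 6.95, 6.90 and 6.21 CPM at d10 and 6.63, 7.41 and 5.76 CPM at d14. At d14 treated tumors exceeded untreated ones in Tnfrsf4 (1.06, SE 0.16, adjusted p = 0.00578) and in Tnfrsf18 (1.32, SE 0.25, adjusted p = 0.00969). Of the exon bases of Tnfrsf18, 27.2% overlap the antisense gene Gm16008.

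The promoter windows of Il2ra, Tnfrsf4 and Tnfrsf18 are shown because all 3 genes were higher with treatment at d14 and because the first is itself a known STAT5 target, with capitals again marking TTCNNNGAA.
Il2ra (chr2:11642542-11642841, + strand): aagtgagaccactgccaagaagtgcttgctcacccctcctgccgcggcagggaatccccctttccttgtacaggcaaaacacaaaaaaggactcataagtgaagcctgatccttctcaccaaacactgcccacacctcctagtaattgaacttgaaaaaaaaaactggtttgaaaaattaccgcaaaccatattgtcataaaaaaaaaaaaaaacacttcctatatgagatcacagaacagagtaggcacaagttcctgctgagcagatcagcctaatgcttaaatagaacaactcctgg
Tnfrsf4 (chr4:156013445-156013744, + strand): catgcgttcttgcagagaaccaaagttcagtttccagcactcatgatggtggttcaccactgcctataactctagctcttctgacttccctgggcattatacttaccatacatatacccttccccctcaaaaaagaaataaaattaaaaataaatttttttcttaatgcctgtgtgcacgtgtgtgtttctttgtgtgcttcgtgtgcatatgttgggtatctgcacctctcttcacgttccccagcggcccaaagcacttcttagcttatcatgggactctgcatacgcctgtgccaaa
Tnfrsf18 (chr4:156026072-156026371, + strand): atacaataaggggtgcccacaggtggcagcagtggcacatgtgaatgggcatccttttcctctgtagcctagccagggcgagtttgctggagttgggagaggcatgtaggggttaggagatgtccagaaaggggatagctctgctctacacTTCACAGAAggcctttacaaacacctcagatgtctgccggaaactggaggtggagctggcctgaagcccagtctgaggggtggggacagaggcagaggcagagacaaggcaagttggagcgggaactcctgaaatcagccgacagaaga
Tnfrsf18 held 1 match and the other windows none, and no AP-1 or forkhead motif lay in these windows or in that of Ccr8. Thus 2 of the 6 windows of these genes held a STAT match. Ikzf2, Ikzf4, Lrrc32 and Il10 are not shown.

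Ccr8, a chemokine receptor of tumor regulatory T cells, was the least abundant of these receptors per kilobase of exon. Its level was 0.95 to 1.05 CPM at d6, 0.68 to 1.94 CPM at d10 and 0.59 to 0.97 CPM at d14 without treatment, and at 0.90 to 1.49 and 1.05 to 1.82 CPM with it. In level it passed in none of the 7 comparisons. Lrrc32 (GARP), which holds latent TGF-β on the cell surface and is also made by platelets and endothelial cells, was at 6.72 to 10.5 CPM at d6 and 8.39 to 9.33 CPM at d14 without treatment. In the untreated d10 tumors it was at 13.4 to 14.5 CPM in 4 of 5 and at 7.10 CPM in replicate 3. The treated d14 tumors, at 14.0 to 16.4 CPM, exceeded the untreated ones (0.87, SE 0.11, adjusted p = 0.00469). Summed endothelial markers differed there too, at 138 to 165 CPM against 85.0 to 104 CPM, while summed platelet markers stood at 9.42 to 12.7 CPM against 3.80 to 9.55 CPM. Their part in the level of Lrrc32 was not tested.

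Of the Ikaros family factors, Ikzf2 (Helios) passed in level in 1 comparison and Ikzf4 (Eos) was high in level in a single group. Ikzf2 was at 7.71 to 8.75 CPM at d6, 7.13 to 8.82 CPM at d10 and 4.82 to 7.72 CPM at d14, and at 6.93 to 10.7 and 9.71 to 12.0 CPM in treated d10 and d14 tumors, the difference at d14 being 0.86 (SE 0.19, adjusted p = 0.0146). Ikzf4 was at 2.40, 1.30 and 2.02 CPM at d6, at 2.44, 2.75, 1.80, 2.80 and 2.23 CPM at d10, at 1.90, 1.37 and 2.39 CPM at d14, and at 2.33, 2.18 and 2.44 CPM in treated d10 tumors. The treated d14 tumors, at 4.69, 4.39 and 3.81 CPM, lay above each of these 14 tumors. Their difference from untreated d14 tumors was 1.25 (SE 0.23, adjusted p = 0.00897).

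Il10, the suppressive cytokine that macrophages and B cells make as well, fell over the untreated course and did not pass with treatment on either day. It was at 1.90, 1.26 and 2.99 CPM at d6, at 1.19, 1.69, 1.22, 1.51 and 0.62 CPM at d10 and at 0.56, 0.36 and 0.62 CPM at d14. The treated tumors held 0.65, 0.66 and 0.90 CPM at d10 and 0.77, 0.63 and 0.52 CPM at d14, overlapping the untreated tumors of the same day on each day. Per kilobase of exon the most abundant of the 9 genes was Tnfrsf4 at d6 (5.57 ± 0.18 CPM per kb, SD, n = 3) and Il2ra in the treated d14 tumors (6.95 ± 0.35, n = 3), and the least abundant Ikzf4 at d6 (0.32 ± 0.09) and Foxp3 in the treated d10 tumors (0.09 ± 0.03).

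Set against Cd3e counts, all 9 genes had their highest group mean at d6. Foxp3 made 45.7, 41.1 and 40.6 counts per 100 Cd3e counts at d6, then 4.91, 2.73, 5.07, 5.20 and 2.58 at d10 and 2.92, 4.25 and 5.18 at d14. With treatment the ratio was 0.41, 0.96 and 1.05 at d10 and 4.16, 5.86 and 5.43 at d14. Between d6 and d10 the ratio of Foxp3 dropped 10.8-fold (exact two-sided permutation test of the log2 ratios, p = 0.0179, the smallest that 3 against 5 tumors allow), and the same smallest p held for each of the other 8 genes, among 54 such tests. The background was as large, with 93.6% of all genes tested apart and lower, and the sign depends on the denominator: per Cd4 count Foxp3 remained lower, while Il2ra, Ikzf2, Ikzf4, Tnfrsf18, Lrrc32 and Ccr8 had positive log2 differences, from 0.37 to 0.95. By edgeR with Cd3e as the library size 9 of 9 genes passed lower, against 95.3% of all genes lower and 0.243% higher.

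From d10 to d14 without treatment the ratio of Foxp3 to Cd3e differed by 0.04 on the log2 scale (exact permutation p = 0.893). Ikzf2 and Ikzf4 were higher per Cd3e count at d14 in each tumor (both exact permutation p = 0.0179), as were 68% of all genes. In edgeR these 2 genes passed higher, against 74.1% of all genes higher and 0.815% lower. Neither passed without untreated d10 replicate 4 (adjusted p = 0.0544 for Ikzf2 and 0.0571 for Ikzf4), and Ikzf4 missed the threshold also without d10 replicate 1, 3 or 5 or d14 replicate 1 or 3. From d6 to d14 all 9 ratios were lower with no overlap (exact permutation p = 0.1, the smallest for 3 against 3), and 9 of 9 passed in edgeR against 70.7% of all genes lower and 3.13% higher. Per Cd4 count the direction over these days turned for most of the genes, as given with that denominator. The edgeR fit on the Cd3e scale had large prior degrees of freedom in some comparisons (269 for d14 against d6, 4.90 with TMM), and the exact tests are given beside its p-values.

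With treatment at d10 the ratio of Foxp3 to Cd3e was 5.23-fold lower than in untreated d10 tumors with no overlap (exact permutation p = 0.0179), and that of Il2ra was higher with no overlap (log2 difference 0.74, exact permutation p = 0.0179). Foxp3 was the only member apart and lower, as were 1.4% of all genes, and Il2ra the only member apart and higher, as were 13.8%. In edgeR none of the 9 passed and 3 had an unadjusted p below 0.05 (adjusted p = 0.0521 for Foxp3), against 0.133% of all genes higher and 0.0174% lower. Foxp3 passed on this scale without untreated d10 replicate 3 (adjusted p = 0.0453), 4 (0.0335) or 5 (0.0138), and Il2ra without replicate 5 (0.0467). At d14 the ratios of Foxp3 overlapped between treated and untreated tumors (log2 difference 0.35, exact permutation p = 0.3), and none of the 9 passed in edgeR (1 at an unadjusted p below 0.05), against 70.6% of all genes lower and 1.58% higher. Per Cd3e count Il2ra and Ikzf4 were apart and higher at d14, as were 2.31% of all genes, and Il10 apart and lower, as were 72.5% (exact permutation p = 0.1 for each, the smallest possible). This depended on the denominator: per Cd4 count Ikzf4 was apart and lower at d14 (-0.29), as were 84.2% of all genes, and Il2ra overlapped (-0.05). Within treated mice Foxp3 and Ikzf4 were higher per Cd3e count at d14 than at d10 in each tumor (exact permutation p = 0.1 for both, the smallest possible), as were 18.6% of all genes, and these were the 2 genes that passed in edgeR, against 14.4% of all genes higher and 33% lower. Per Cd4 count the higher ratio held for Foxp3 but not for Ikzf4 (log2 difference 0.01, exact permutation p = 0.9).

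**Figure D4:**
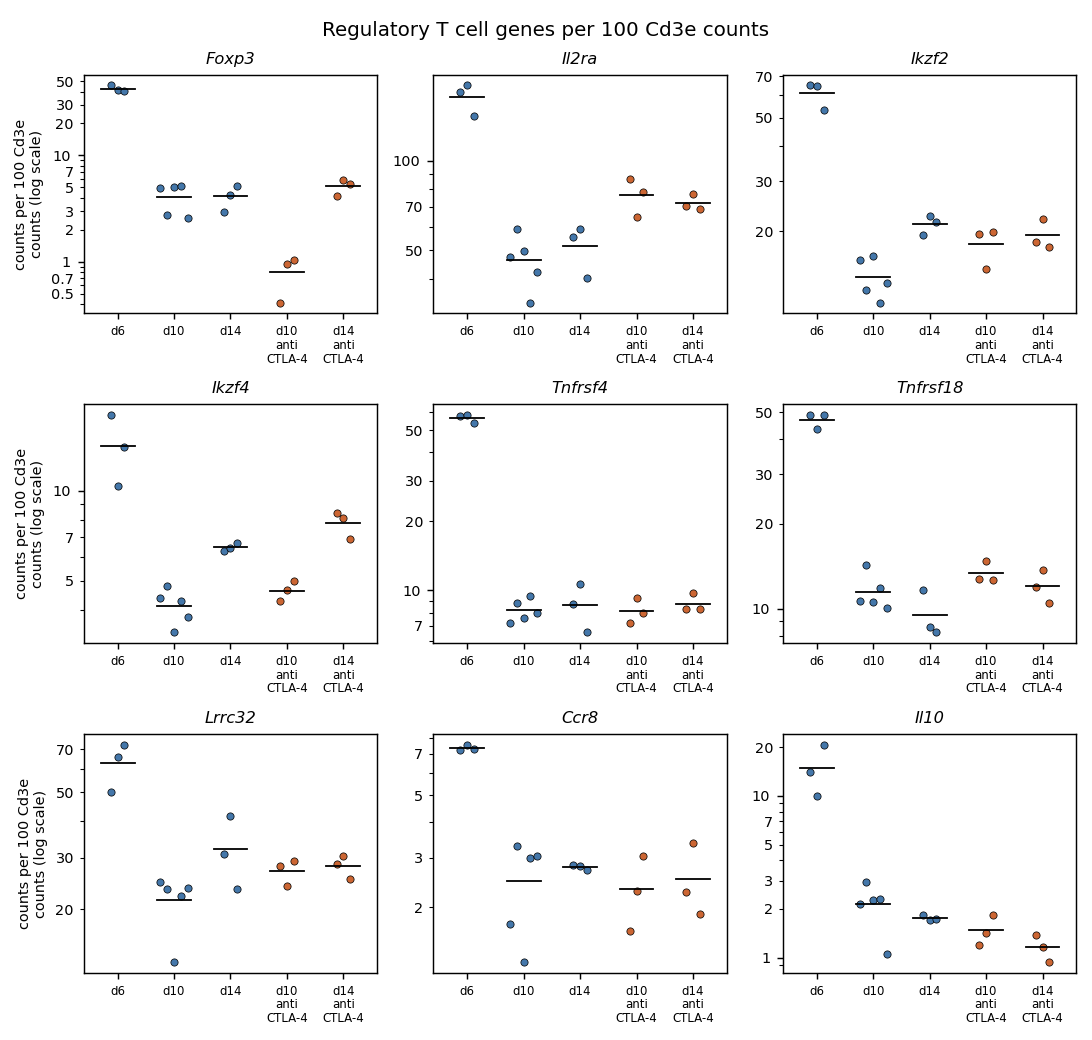
Counts of each of the 9 genes per 100 Cd3e counts (vertical axes, log scale) in each tumor (points) by group, untreated in blue and anti CTLA-4 in orange, with group means as bars. Foxp3 stood at 40.6 to 45.7 at d6, at 0.41 to 1.05 in the treated d10 tumors and at 2.58 to 5.86 in the other groups.

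Cd4, which regulatory T cells carry and CD8+ T cells do not, served as the other denominator. Foxp3 made 57.5, 58.0 and 58.2 counts per 100 Cd4 counts at d6, and 38.8, 18.9, 43.6, 32.4 and 25.7 at d10 without treatment (exact permutation p = 0.0357, groups apart). Untreated d14 tumors held 27.4, 43.5 and 40.7, treated d14 tumors 25.9, 32.0 and 37.8, and treated d10 tumors 4.39, 9.58 and 10.9. The treated d10 tumors were 3.97-fold below the untreated d10 tumors (exact permutation p = 0.0179, the smallest possible), while 0.487% of all genes were apart and lower. At d14 treated and untreated tumors overlapped in Foxp3 (log2 difference -0.21, exact permutation p = 0.5). Ikzf2, Ikzf4, Lrrc32, Ccr8 and Il10 were apart and lower with treatment at d14, as were 84.2% of all genes. No member was apart and higher there. On this scale other genes had the opposite sign from Foxp3 at d10 with treatment: Il2ra, Ikzf2, Ikzf4, Tnfrsf18 and Lrrc32 were apart and higher, as were 36.3% of all genes. From d6 to d14 without treatment Il2ra (log2 difference 1.06), Ikzf2 (1.22), Ikzf4 (1.65), Lrrc32 (1.74) and Ccr8 (1.34) were apart and higher per Cd4 count, as were 86.2% of all genes, and Foxp3 was apart and lower (-0.67), as were 1.81% (exact permutation p = 0.1 for each, the smallest possible). In edgeR with Cd4 as the library size these 5 genes passed higher, and Foxp3 did not pass (adjusted p = 0.133). The share of all genes that passed in this fit is not given, so the count describes the fit and not the members. From d10 to d14 with treatment Foxp3 was apart and higher (2.03), as were 3.68% of all genes, and Ikzf4 overlapped (edgeR adjusted p = 0.943). Over these days 6 genes, Il2ra, Ikzf2, Tnfrsf4, Tnfrsf18, Lrrc32 and Il10, were apart and lower, as were 74% of all genes (exact permutation p = 0.1 for each, the smallest possible). Over 2 denominators and 6 comparisons, 54 exact tests were made for each denominator, and their p-values are unadjusted.

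Among 25 other genes known from regulatory T cells, chosen by name, 24 could be tested in most comparisons. They were counted in whole tumors, and the part of other cells in their differences was not tested. From d6 to d10, 9 of 10 T cell markers passed higher too, and Cd8a went from 7.23 to 7.53 CPM to 55.5 to 80.8 CPM. From d6 to d10, 12 passed higher and 1 lower, against 10.5% of all genes tested higher and 7.03% lower. Nt5e (CD73, which makes adenosine) rose by 1.52 on the log2 scale (SE 0.15, adjusted p = 0.000337), Klrg1 by 1.43 (SE 0.28) and Ikzf3 by 1.33 (SE 0.23), while Gpr83 fell by 1.56 (SE 0.47, adjusted p = 0.0456). From d10 to d14 without treatment 8 passed lower and 1, Nt5e, higher, against 9.87% of all genes lower and 9.8% higher, with Klrg1, Izumo1r, Ebi3 and Batf down by 1.55, 1.45, 1.19 and 1.09. At d14, 16 passed higher with treatment and 1, Nrp1, lower (Nt5e, Nrp1 and Klrg1 as lone exceptions were picked from their values): the costimulator Icos by 1.47 (SE 0.20, adjusted p = 0.00508), Irf4 by 1.38, Klrg1 by 1.33 and Izumo1r by 1.25. Of all genes 17.7% passed higher there and 14.8% lower. Over d6 to d14 without treatment 9 passed higher and 8 lower, against 25.5% and 26% of all genes, with Nt5e (2.47) and Itgb8 (1.39) up and Gpr83 (-1.98) and Izumo1r (-1.63) down. In treated mice from d10 to d14, 17 passed higher and 1, Klrg1, lower, against 23.3% of all genes in each direction, with Gpr83 (2.06) and Izumo1r (1.52) the highest. The treatment effect differed between days for 12 of them, all higher at d14, against 11.9% of all genes higher and 5.85% lower, led by Izumo1r (2.96, SE 0.50, adjusted p = 0.00378) and Gpr83 (2.49, SE 0.71, adjusted p = 0.0274).

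Ctla4 itself was nearly uncounted. It had 0 to 2 counts per tumor, 9 in all over 17 tumors and none in 11 of them, at or below the floor of 3 counts, although its exons overlap no other gene and although Icos (4.37 to 20.8 CPM) and Cd28 (5.50 to 18.8 CPM), its neighbours on chromosome 1, were well counted. Ctla4 was not tested.

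Of 16 genes listed as ligands and partners, Ccl22 and Ccr4 fell from d6 to d10 and were higher with treatment at d14. These 2 were picked by their values, and 9 of 15 tested passed higher with treatment at d14. Of 7 dendritic cell markers, 2 passed lower from d6 to d10 and 4 passed higher with treatment at d14. The part of these cells in the differences of Ccl17, Ccl22 and Ccr4 was not tested. Ccl17 and Ccl22 are ligands of CCR4, the receptor that draws regulatory T cells into tissues. Ccl17 was at 4.75 to 9.59 CPM at d6 and at or below 1.59 CPM in each later tumor, a fall of 2.89 on the log2 scale to d10 (SE 0.42, adjusted p = 0.00187). Ccl22 fell by 1.74 (SE 0.22, adjusted p = 0.00111) and Ccr4 by 2.13 (SE 0.28, adjusted p = 0.00131) over the same days. At d14 treated tumors held more Ccr4 (the log2 difference was 2.49, SE 0.40, adjusted p = 0.00656) and Ccl22 (1.54, SE 0.25, adjusted p = 0.00673) while Ccl17 did not pass (0.46, SE 0.35, adjusted p = 0.342). Treatment at d10 left Ccr4 at -0.53 (SE 0.32, adjusted p = 0.479), and the difference between the effects was 3.01 for Ccr4 (SE 0.51, adjusted p = 0.00378) and 1.93 for Ccl22 (SE 0.38, adjusted p = 0.00554).

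**Figure D5:**
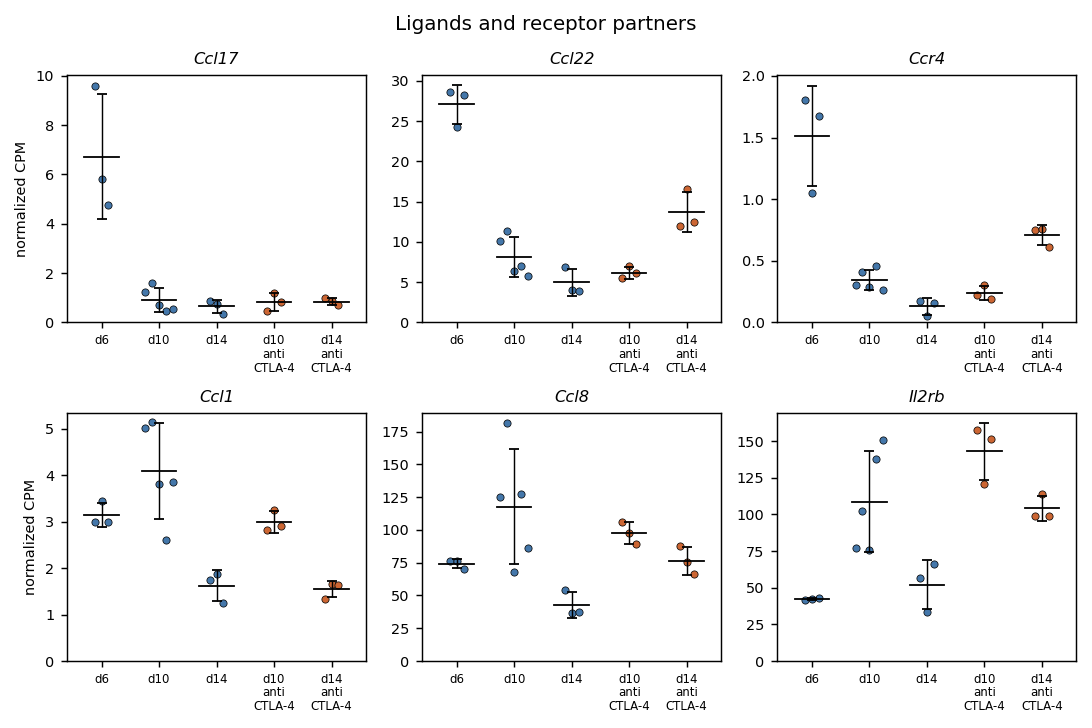
Normalized CPM (vertical axes, linear, from 0) of the chemokines Ccl17, Ccl22, Ccl1 and Ccl8 and the receptors Ccr4 and Il2rb in each tumor (points) by group, untreated in blue and anti CTLA-4 in orange, with means as bars and 1 SD as error bars. Ccl22 was at 24.3 to 28.7 CPM at d6, at 3.95 to 11.4 CPM in the untreated d10 and d14 tumors and at 12.0 to 16.6 CPM in the treated d14 tumors.

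Ccl1 and Ccl8 are ligands of CCR8. Ccl1 was at 2.99 to 3.44 CPM at d6, 2.60 to 5.14 CPM at d10 and 1.24 to 1.88 CPM at d14, and did not pass with treatment on either day (-0.46 at d10 and -0.00 at d14). Ccl8 fell from d10 to d14 by 1.44 (SE 0.30, adjusted p = 0.0132) and rose with treatment at d14 by 0.90 (SE 0.17, adjusted p = 0.00993). Of the OX40 and GITR ligands, Tnfsf4 rose with treatment at d14 from 0.52 to 0.64 CPM to 0.91 to 1.19 CPM (adjusted p = 0.0162) and Tnfsf18 rose from d6 to d10 (1.64, SE 0.39, adjusted p = 0.0196), both at no more than 1.81 CPM in any tumor.

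Il2, the ligand of Il2ra, was at 0.30 to 0.86 CPM at d6 and at 0.01 to 0.06 CPM in the untreated d14 tumors (adjusted p = 0.00072). The d14 level is near the floor of 3 counts. Of the receptor chains that pair with Il2ra, Il2rb rose from d6 to d10 by 1.35 (SE 0.23, adjusted p = 0.00383) and was 1.06 higher with treatment at d14 (SE 0.22, adjusted p = 0.0129). Il2rg is given over other days, so the chains are not compared here. It went from 61.0 to 68.7 CPM at d6 to 16.7 to 26.0 CPM at d14 without treatment. Of the exon bases of Il2rg, 30.5% are shared with Gm20489 on the same strand. The part of this overlap and of the library set in the Il2rg values was not tested. Il10ra, the receptor for IL-10, rose with treatment at d14 by 1.05 (SE 0.22, adjusted p = 0.013) while Il10 overlapped. Of the 16 ligands and partners, 2 passed higher and 3 lower from d6 to d10, against 10.5% of all genes higher and 7.03% lower. From d10 to d14 without treatment 8 passed lower and none higher, against 9.87% and 9.8% of all genes, and 9 of 15 tested passed higher with treatment at d14 and none lower, against 17.7% and 14.8%.

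Over the 17 tumors the genes most like Foxp3 in level, by Pearson's r of log2(CPM + 1) among 13336 genes with a mean of at least 1 CPM, were Kmo (0.94), an enzyme of the kynurenine pathway, Siglece (0.90), Il4i1 (0.89), an amino acid oxidase, Rnase6 (0.89) and I830077J02Rik (0.88). After the group means were taken out the nearest were Olfml1 (0.79), Chac2 (0.79), Gprin3 (0.76), Gm19439 (0.76) and Matn2 (0.74), a different 5. Among the members, r with Foxp3 over the 17 tumors was 0.71 for Tnfrsf4, 0.65 for Il10 and -0.17 for Il2ra. These values describe tumors that share groups and library sets and are no test.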

How the data were processed

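Raw counts per gene were deposited by the authors for 17 tumors: per the study's methods and the submitters' processing notes, paired-end reads (NextSeq or NovaSeq) were aligned to GRCm38/mm10 with TopHat2 2.0.14 and counted with HTSeq against Gencode vM21. The strand setting is not given in the sources used here, and totals of 46371577 to 96759833 counts set the precision of low genes. Groups came from sample titles. The members and gene lists were chosen with earlier results of these data known, and the named genes by role, by Foxp3 likeness, and, for the other lists, as the up to 4 largest log2 differences above 1 that passed. Izumo1r with treatment at d10 was named outside this rule.

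Tests used edgeR 4.0.16 (limma 3.58.1, R 4.3.3): filterByExpr, TMM, quasi-likelihood fits of the compared groups, and Benjamini-Hochberg adjustment over all genes at 0.05. For ratios the Cd3e count replaced the library size, and log2 ratios were tested by exact permutation of tumors, added after the data were seen. Scripts were tested on simulated data. Alternatives were DESeq2 1.42.0, other filters, scalings, denominators, fits and left-out tumors. Same-numbered tumors did not deviate together (correlations -0.265 to 0.117 over 18 pairs), so replicate numbers were not used as pairs. No pair of replicates agreed within counting noise. Figures used matplotlib 3.10.9 in Python 3.11.15. Positions are those of GRCm38, and promoter windows are from RefSeq GRCm38.p6, with entries for 5 of 9 members.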

Additional observations from a re-analysis of the deposited data

Results flagged for a closer look

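Lrrc32 in untreated d10 replicate 3 lay far below the other 4 tumors of its group, at 7.10 CPM and at 13.2 counts per 100 Cd3e counts. The 5 untreated d10 tumors were the only group large enough for this check, which was made for 9 genes on 2 scales, and chance flags about 1 in 20.

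The effect of anti CTLA-4 differed between d14 and d10 for 5 genes by the edgeR interaction test, with log2 differences between the effects of 3.87 for Foxp3, 1.31 for Tnfrsf18, 1.29 for Ikzf4, 1.28 for Tnfrsf4 and 0.96 for Il2ra. Of all 18574 genes tested 11.9% passed higher in this test and 5.85% lower. Foxp3 was lower in each treated tumor at d10 and higher in each at d14. Cd4 had a difference between the effects of 2.14 and Cd3e of 1.18. Markers of other cells differed between the days too, with 5 of 6 B cell (median 4.02), 6 of 7 macrophage (1.65), 6 of 7 dendritic cell (1.25) and 5 of 5 fibroblast markers (1.50) higher at d14, and their part was not tested.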

How the results depend on the processing

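Of 954 log2 differences of the 9 genes in level recomputed under the alternatives, 870 kept their direction and their side of the threshold, 55 changed side and 29 changed sign, 0 of the latter for a gene that had passed. Values per Cd3e count depended on the denominator. In the mean log2 ratios, a change from Cd3e to Cd4 moves every gene of a comparison by the same amount, set by Cd4 per Cd3e count. By edgeR that ratio differed by -2.50 on the log2 scale for d10 against d6. The cause of the different courses of the denominators was not tested. The numbers of genes that passed below come without the share over all genes, so they describe the settings and not the members. Per Cd4 count 28.2% of all genes tested were apart and higher for d10 against d6, and 86.2% for d14 against d6. For treatment at d10 36.3% were apart and higher. Apart and lower were 84.2% for treatment at d14 and 74% for treated d14 against d10. The fits per Cd3e had no DESeq2 or TMM alternative. With Cd3d as denominator log2 differences of the ratio of the opposite sign were Tnfrsf4 -0.032 for treatment at d14, Ikzf4 -0.12 and Tnfrsf18 -0.071 for treatment at d10 and Il2ra 0.33, Tnfrsf18 0.26 and Il10 0.079 for treated d14 against d10, and the number of the 9 genes that passed per denominator count was 1 for d14 against d10 and 6 for treated d14 against d10. With Cd4 as denominator log2 differences of the ratio of the opposite sign were Il2ra 0.71, Ikzf2 0.41, Ikzf4 0.76, Tnfrsf18 0.48, Lrrc32 0.97 and Ccr8 0.94 for d10 against d6, Il2ra 1.10, Ikzf2 1.23, Ikzf4 1.63, Tnfrsf4 0.063, Tnfrsf18 0.44, Lrrc32 1.79 and Ccr8 1.34 for d14 against d6, Foxp3 -0.22, Il2ra -0.10, Ikzf4 -0.29, Tnfrsf4 -0.58 and Tnfrsf18 -0.24 for treatment at d14, Tnfrsf4 0.38 and Ccr8 0.30 for treatment at d10 and Ikzf2 -0.65, Tnfrsf4 -0.63, Lrrc32 -0.69 and Ccr8 -0.64 for treated d14 against d10, and the number of the 9 genes that passed per denominator count was 2 for d10 against d6, 5 for d14 against d6, 2 for treatment at d14, 5 for treatment at d10 and 8 for treated d14 against d10. With Ptprc, the pan-leukocyte gene, as denominator log2 differences of the ratio of the opposite sign were Il2ra 0.075, Ikzf4 0.17, Lrrc32 0.41 and Ccr8 0.41 for d10 against d6, Foxp3 -0.55, Il2ra -0.37, Tnfrsf4 -0.50, Lrrc32 -0.022 and Ccr8 -0.44 for d14 against d10, Ikzf4 0.26 and Lrrc32 0.38 for d14 against d6, Tnfrsf4 0.0016 for treatment at d10 and Ikzf2 -0.43, Tnfrsf4 -0.43, Lrrc32 -0.48 and Ccr8 -0.42 for treated d14 against d10, and the number of the 9 genes that passed per denominator count was 2 for d10 against d6, 0 for d14 against d10, 4 for d14 against d6, 1 for treatment at d14 and 6 for treated d14 against d10. With the sum of Cd3d, Cd3e and Cd3g as denominator log2 differences of the ratio of the opposite sign were Foxp3 -0.053 for d14 against d10, and the number of the 9 genes that passed per denominator count was 1 for d14 against d10. With all genes of at least 1 count log2 differences in level of the opposite sign were Ikzf4 0.046 for d14 against d6 and Tnfrsf18 -0.0045 for treatment at d10, and the number of the 9 genes that passed in level was 1 for treatment at d10. With at least 10 counts in every library log2 differences in level of the opposite sign were Ikzf4 0.0037 for d14 against d6 and Tnfrsf18 -0.0036 for treatment at d10. With library sizes without TMM log2 differences in level of the opposite sign were Ikzf4 0.069 for d14 against d6 and Tnfrsf18 -0.026 for treatment at d10. With the replicate block log2 differences of the ratio of the opposite sign were Foxp3 -0.028 and Il2ra -0.023 for d14 against d10 and Tnfrsf4 0.048 and Ccr8 0.17 for treatment at d10, and log2 differences in level of the opposite sign were Ikzf2 0.020 for d10 against d6, and the number of the 9 genes that passed per denominator count was 1 for d14 against d10 and 4 for treatment at d10, and the number of the 9 genes that passed in level was 2 for treatment at d10. With untreated d10 replicates 1 to 3 only log2 differences of the ratio of the opposite sign were Foxp3 -0.035 and Il2ra -0.011 for d14 against d10 and Tnfrsf4 0.048 and Ccr8 0.12 for treatment at d10, and log2 differences in level of the opposite sign were Ikzf2 0.028 for d10 against d6, and the number of the 9 genes that passed per denominator count was 1 for d14 against d10 and 3 for treatment at d10, and the number of the 9 genes that passed in level was 2 for treatment at d10. With untreated d10 replicates 4 and 5 only log2 differences of the ratio of the opposite sign were Tnfrsf4 -0.0086, Ccr8 -0.11 and Il10 0.056 for d14 against d10, and log2 differences in level of the opposite sign were Tnfrsf18 -0.0080 and Lrrc32 -0.032 for treatment at d10, and the number of the 9 genes that passed per denominator count was 1 for d14 against d10 and 2 for treatment at d10, and the number of the 9 genes that passed in level was 4 for d10 against d6. With DESeq2 the number of the 9 genes that passed in level was 1 for treatment at d10. With all 5 groups in one fit the number of the 9 genes that passed per denominator count was 1 for treatment at d14 and 2 for treatment at d10, and the number of the 9 genes that passed in level was 1 for treatment at d10. Leaving out each tumor in turn, the level in d10 against d6 gave the number of genes that passed 0 to 3, Ikzf2 -0.10 to 0.0057 and Tnfrsf18 -0.034 to 0.14. Leaving out each tumor in turn, the level in d14 against d10 gave the number of genes that passed 1 to 6. With 1 tumor left out, the ratio in d14 against d10 gave the number of genes that passed 0 to 2, Foxp3 -0.20 to 0.20 and Tnfrsf4 -0.10 to 0.24. Leaving out each tumor in turn, the level in d14 against d6 gave Ikzf4 -0.23 to 0.18 and Lrrc32 -0.081 to 0.23. With 1 tumor left out, the ratio in treatment at d14 gave the number of genes that passed 0 to 1, Lrrc32 -0.37 to 0.048, Tnfrsf4 -0.15 to 0.20 and Ccr8 -0.41 to 0.021. Leaving out each tumor in turn, the level in treatment at d10 gave Tnfrsf18 -0.049 to 0.087, Ikzf4 -0.14 to 0.0019, Lrrc32 -0.024 to 0.25 and the number of genes that passed 0 to 1. With 1 tumor left out, the ratio in treatment at d10 gave Tnfrsf4 -0.11 to 0.069, Ccr8 -0.34 to 0.10 and the number of genes that passed 0 to 2. Leaving out each tumor in turn, the level in treated d14 against d10 gave Il2ra -0.057 to 0.26, Tnfrsf18 -0.051 to 0.14 and Il10 -0.29 to 0.0035. With 1 tumor left out, the ratio in treated d14 against d10 gave Il2ra -0.19 to 0.013, Ccr8 -0.15 to 0.36, Ikzf2 -0.027 to 0.17 and Lrrc32 -0.030 to 0.12. The same-numbered tumors did not deviate together, so the blocked fits pair tumors by a number alone, and the block took Foxp3 with treatment at d10 to an adjusted p of 0.000458 and Il10 to 0.028. Low counts limit Ccr8, Il10 and, in the treated d10 tumors, Foxp3, and the d14 comparisons with earlier days carry the library split.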
